A study of Mus musculus with 6 samples.

Results

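The 30 genes described here code for the proteins that carry a cell from G1 into S phase and copy its DNA. They were taken from the 54532 genes of the deposited count table by gene symbol, from a list of members that names 30 genes, and all 30 were found on 1 row each. They fall into 5 roles: 8 genes of origin licensing, 11 of the replication fork, 4 of nucleotide supply, 4 of E2F and cyclin E control and 3 of S-phase chromatin. All 30 had enough counts to be tested.

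Before S phase, the origin recognition complex, CDC6 and CDT1 load the ring-shaped MCM helicase onto DNA, a step called licensing. Cyclin E with its kinase releases E2F transcription factors from the retinoblastoma proteins, and E2F drives transcription of many genes of the list, those for the helicase, for the fork and for nucleotide supply among them. CDC45 and the GINS complex then join the helicase, and polymerases, a sliding clamp and its loader copy the strands. Hepatocytes in the adult liver divide rarely, whereas hepatocyte lines in culture cycle continuously.

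The measurements came from AML12, a mouse hepatocyte line labelled wild type and as parenchymal hepatic cells, after 24 h of treatment. The line was made from hepatocytes of a mouse transgenic for the growth factor TGF-alpha. In 1 group, 3 libraries came from cells given PA/OA, the submitters' modelling agent, quoted at 400 nM and 800 nM. In the other, 3 libraries came from cells given PP at 250 µg/ml. The labels of the second group name PP alone, and the study's design text does not settle whether those cells also received PA/OA; an untreated control was not analysed here. Separate cultures are nowhere stated, so a p-value here is set by how far these libraries scatter, and that scatter may be technical.

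Total counts ran from 24113169 to 32560589 per library, and no 2 libraries of a group were alike to within counting error, so each was taken as 1 replicate. Of the 10 hepatocyte markers listed, the keratin genes Krt8 and Krt18, Apob and Hnf4a were plainly present, while Alb stood at 12.2 CPM in PA/OA and 9.90 in PP, Serpina1a and Fgb stayed under 1 CPM and Apoa2 had no count. CPM are the usual depth-scaled counts, here with each library also scaled by the trimmed mean of M-values (TMM). Over all 10, summed CPM ran from 3008 to 3220 in PA/OA and from 3721 to 4070 in PP, nearly all of it Krt8 and Krt18, while Hnf4a and Apob fell in PP, by 1.42 and 1.70 on the log2 scale. Summed over 4 cholangiocyte markers, of which Epcam had no count, CPM ran from 2337 to 2473 in PA/OA and from 3833 to 4252 in PP, almost all of it Krt19 and Krt7. Summed over 6 leukocyte and macrophage markers, CPM ran from 3.66 to 4.22 and from 27.1 to 30.1, nearly all of it Cd68, which codes for a lysosomal protein, while Adgre1 had no count and Ptprc and Itgam stayed under 1 CPM. The 5 endothelial markers summed to 0.638 to 1.50 CPM in PA/OA and 0.437 to 0.941 in PP, and the 6 stellate and fibroblast markers to 4.13 to 5.39 and 1.85 to 4.15. The part of these shifts in the results below was not tested.

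Setting PP against PA/OA asks which replication and G1/S genes differed, and whether those of a shared role or protein complex did so alike. They did not all move one way. Scaled mRNA levels were higher in PP for the DNA ligase gene Lig1, the reductase gene Rrm2 and the licensing factor gene Cdt1. The same held for the helicase genes Mcm3 and Mcm5, the clamp gene Pcna and the histone chaperone gene Chaf1b. Levels were lower in PP for the thymidine genes Tk1 and Tyms, the helicase genes Mcm6 and Mcm7 and the polymerase gene Pola1. Of the 30 genes, 16 were higher, 5 were lower and 9 did not pass (edgeR, quasi-likelihood F-test, p-values adjusted over 15718 genes by Benjamini and Hochberg's method, threshold 0.05). Their median log2 fold change was 0.38 and ran from -1.58 to 1.76, where the median of all genes tested was -0.087.

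These counts stand beside a comparison in which most genes differed. Of all genes tested, 75.0% were called, 35.1% higher and 39.9% lower, so the 21 of 30 called here (70.0%) is a share near that background. By direction, 53.3% of the 30 were higher and 16.7% lower. For 22 of the 30 (73.3%) the range of the 3 PP libraries lay wholly apart from that of the 3 PA/OA libraries, as it did for 77.4% of all genes. In RNA from whole cultures, fewer cells of a kind (such as cells in S phase) and less RNA per cell cannot be told apart.

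The split also depended on how libraries were scaled, and the TMM factors themselves differed between the groups (1.15 to 1.17 in PA/OA, 0.849 to 0.867 in PP). With library size only, 77.3% of all genes were called, 20.6% higher and 56.7% lower around a median of -0.52, and of the 30 genes 9 were higher and 11 lower. With upper-quartile scaling 75.9% of all genes were called, 27.0% higher and 48.9% lower, and 13 and 7 of the 30. With each library's trend of fold change against abundance taken out, 71.1% of all genes were called, 35.7% higher and 35.4% lower, and 18 and 5 of the 30. Of the 21 genes called, 13 kept their direction and their call under each of 17 alternatives of scaling, filter, tool and left-out library: Cdt1, Mcm3, Mcm5, Lig1, Pcna, Rrm1, Rrm2 and Chaf1b as higher, and Mcm6, Mcm7, Pola1, Tk1 and Tyms as lower. Among the genes that did not pass, Cdc6 stayed so under all 17.

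**Figure D1:**
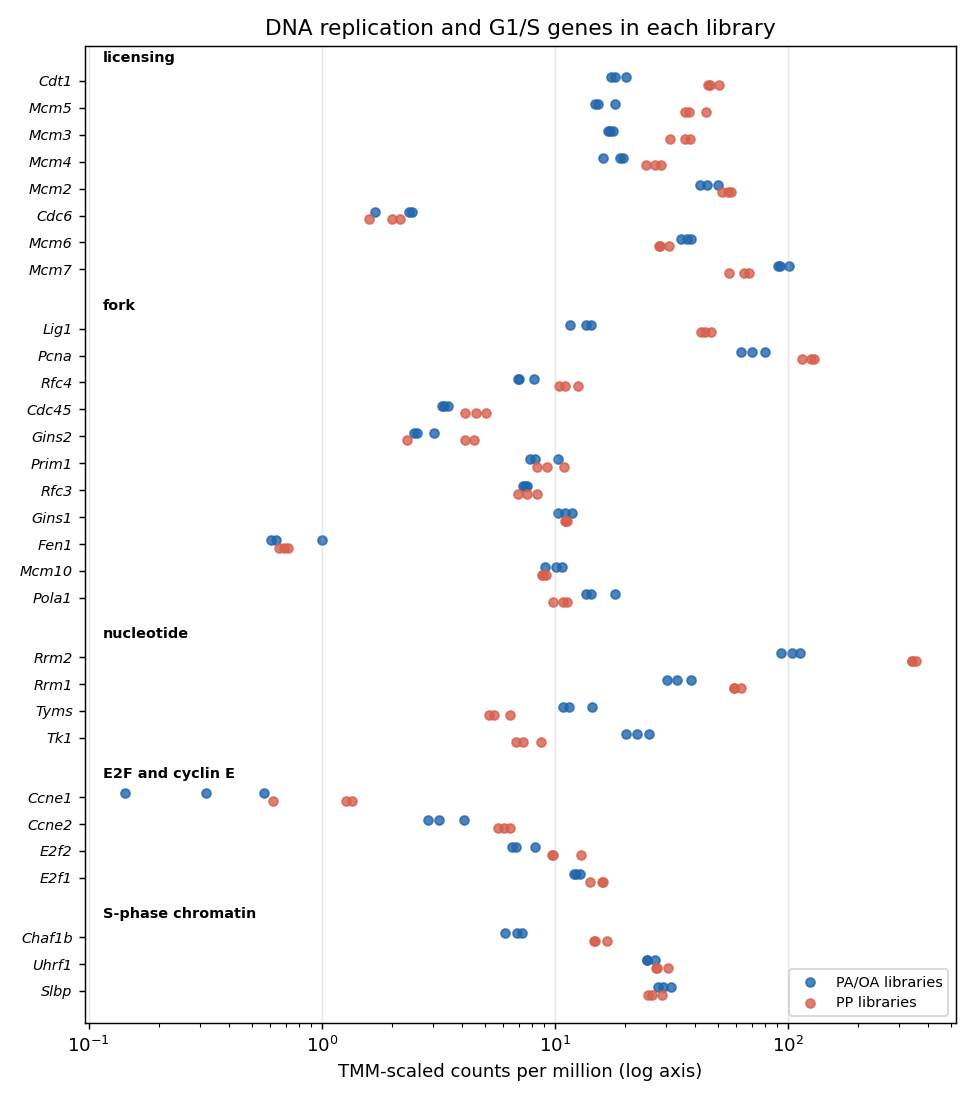
TMM-scaled CPM of the 30 genes (log axis) in each of the 3 PA/OA libraries (blue) and 3 PP libraries (red), by role and ordered by fold change within a role; each point is 1 library. The groups stand clear of each other for 22 genes, most widely for Lig1, Rrm2, Tk1 and Cdt1, and intermix for genes such as Cdc6, Gins1, Prim1 and Fen1.

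Among the 8 licensing genes, 5 were higher and 2 were lower, beside 35.1% and 39.9% of all genes. Only Cdc6 did not pass, and the median log2 fold change was 0.41. Cdt1, which codes for the factor that brings the helicase to origins (chromosome 8, 122568015 to 122573554, build mm10), stood at 17.4, 18.2 and 20.1 CPM in PA/OA replicates 1 to 3 and at 46.1, 50.5 and 45.6 in PP. Every PP library was above every PA/OA library, and the log2 fold change was 1.35 ± 0.086 (SE; edgeR adjusted p = 4.27e-12). Geminin, which binds CDT1 and blocks relicensing, is coded by Gmnn, which rose as well, by 1.76. Relative to Gmnn, the count of Cdt1 was 2.36, 1.92 and 2.58 in PA/OA and 1.84, 1.73 and 1.56 in PP, a ratio within a library that a common scale factor leaves as it is. This ratio was lower in each PP library (exact two-sided permutation test p = 0.1, the smallest that 3 against 3 allows).

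The 6 genes of the MCM helicase, whose subunits form 1 ring, went in opposite directions. Mcm5 (chromosome 8, 75109569 to 75128439) had 14.8, 15.3 and 18.0 CPM in PA/OA and 36.2, 44.4 and 37.7 in PP. Mcm3 (chromosome 1, 20802968 to 20820312) had 17.8, 17.2 and 16.9 and 36.1, 37.9 and 31.2. Both rose in every PP library, Mcm5 by 1.30 ± 0.10 (edgeR adjusted p = 1.36e-10) and Mcm3 by 1.02 ± 0.094 (adjusted p = 2.12e-09). Mcm7 (chromosome 5, 138164583 to 138172422) went the other way, from 92.6, 90.9 and 101 to 65.0, 68.4 and 55.8 CPM, and Mcm6 (chromosome 1, 128331590 to 128359664) from 34.7, 38.3 and 36.8 to 28.1, 30.8 and 28.2. Neither gene's groups overlapped, and their log2 fold changes were -0.59 ± 0.073 (edgeR adjusted p = 2.28e-07) and -0.33 ± 0.082 (adjusted p = 0.00092).

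Mcm4 went from 16.0, 19.1 and 19.6 to 28.6, 26.9 and 24.7 CPM and rose by 0.55 ± 0.10 (edgeR adjusted p = 4.81e-05), but did not pass with library size only. Mcm2 had 42.0, 44.9 and 49.9 CPM in PA/OA and 52.0, 56.8 and 55.5 in PP. It was called higher (0.27) with TMM, did not pass with upper-quartile scaling or with the trend removed, and was called lower with library size only (-0.17, edgeR adjusted p = 0.0457). Its direction thus rested on the scaling. Cdc6, which codes for the ATPase that helps load the helicase, was scarce, at 1.69, 2.43 and 2.36 CPM in PA/OA and 1.60, 2.17 and 2.00 in PP, with overlapping groups and a log2 fold change of -0.16 ± 0.28 (edgeR adjusted p = 0.616).

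The unequal change within the helicase was also seen inside each library, as the share of each subunit in the summed level per kilobase of gene length of the 6 genes. Mcm7 made up 44.2, 42.0 and 43.5% of this sum in the PA/OA libraries and 26.8, 26.2 and 24.6% in the PP libraries. Mcm5 made up 7.85, 7.84 and 8.64% and 16.5, 18.9 and 18.4%. Mcm7 thus remained the most abundant subunit per length in all 6 libraries, while Mcm5, the least abundant in PA/OA replicates 1 and 2 and level with Mcm3 at the bottom in replicate 3, came next after Mcm7 in PP replicates 2 and 3 and after Mcm7 and Mcm3 in PP replicate 1. The share of Mcm3 went from 9.32% ± 0.705 to 17.0% ± 0.660 (SD, n = 3), that of Mcm4 from 10.3% ± 0.731 to 13.6% ± 0.908 and that of Mcm6 from 15.9% ± 0.853 to 11.3% ± 0.408, with no overlap between groups (exact permutation test p = 0.1 for each, 0.156 adjusted over the 25 subunits of 6 complexes). The share of Mcm2 overlapped between groups, at 13.2% ± 0.489 and 14.3% ± 1.05. As a plain ratio of counts, Mcm5 to Mcm7 was 0.160, 0.168 and 0.179 in PA/OA and 0.557, 0.650 and 0.675 in PP, 3.70 times higher, and Mcm3 to Mcm6 was 2.55 times higher. The complexes and ratios were chosen after the values of the genes were seen.

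Of Mcm7's 4426 exon bases, 557 (12.6%) also lie in exons of other genes, among them Ap4m1 and Cops6 on the opposite strand and the microRNA genes Mir25 and Mir93 within it. No use of strand is recorded, so its count is uncertain to that extent. The exons of Mcm2 to Mcm6, Cdc6 and Cdt1 share no base with another annotated gene.

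**Figure D2:**
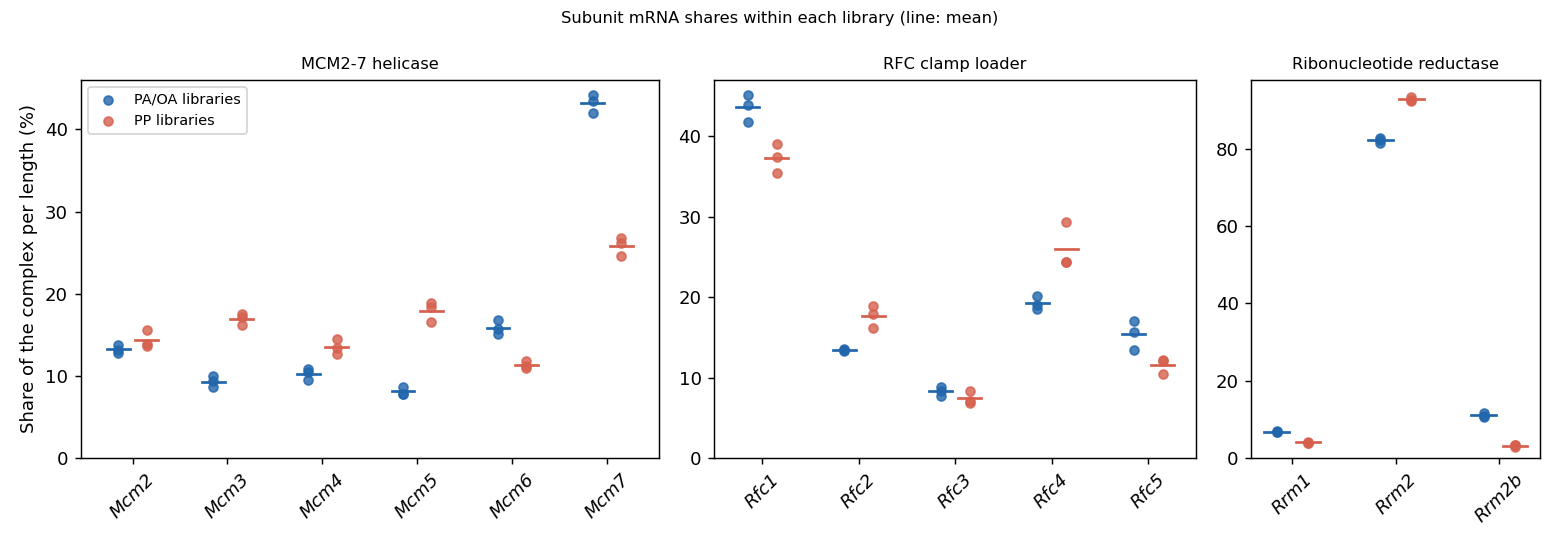
Share of each subunit gene in the summed count per kilobase of its complex (%), within each PA/OA library (blue) and PP library (red), for the MCM helicase, the RFC clamp loader and ribonucleotide reductase; points are libraries and lines are means of 3. Mcm7 goes from a mean of 43.2% to 25.9% of the helicase sum and Mcm5 from 8.11% to 17.9%, while Rrm2 goes from 82.1% to 92.8% of its sum.

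E2F proteins bind a site whose usual core was searched here as TTTGGCGC, TTTCCCGC, TTTGCCGC and TTTCGCGC on both strands, in RefSeq promoter windows of build GRCm38.p6 that run from 250 bases before to 50 bases after a start site. Of 32851 such windows 2.26% held a match, and of 21263 windows of protein-coding genes 2.85%. A window was at hand for 26 of the 30 genes (not for Mcm4, Gins1, Gins2 and Ccne2), and 11 of these 26 had a match in at least 1 window: 5 of 14 higher in PP, 3 of 5 lower and 3 of 7 that did not pass. Some genes had more than 1 window, and counted by window, as for all genes, 11 of 32 (34.4%) held a match. The helicase genes that went opposite ways, Mcm3 and Mcm5 against Mcm6 and Mcm7, all carried matches. In Mcm3 both lay after the start site, 19 and 38 bases from it. The 250 bases before the start site are shown for the other 3 genes because they let the letters of a gene that rose be set beside those of genes that fell, in lower case with the matches in capitals.
Mcm5, chr8:75109259-75109508, plus strand: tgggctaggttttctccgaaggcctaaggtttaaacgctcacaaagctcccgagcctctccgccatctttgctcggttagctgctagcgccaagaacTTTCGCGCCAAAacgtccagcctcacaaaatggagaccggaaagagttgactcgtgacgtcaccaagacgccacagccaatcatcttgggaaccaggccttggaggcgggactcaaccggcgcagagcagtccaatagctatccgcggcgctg
Mcm6, chr1:128359706-128359955, minus strand: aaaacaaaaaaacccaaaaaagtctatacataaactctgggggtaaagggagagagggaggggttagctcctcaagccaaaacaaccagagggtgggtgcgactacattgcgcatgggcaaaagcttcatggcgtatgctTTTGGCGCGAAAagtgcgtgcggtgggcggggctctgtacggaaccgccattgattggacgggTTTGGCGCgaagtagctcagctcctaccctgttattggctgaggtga
Mcm7, chr5:138171884-138172133, minus strand: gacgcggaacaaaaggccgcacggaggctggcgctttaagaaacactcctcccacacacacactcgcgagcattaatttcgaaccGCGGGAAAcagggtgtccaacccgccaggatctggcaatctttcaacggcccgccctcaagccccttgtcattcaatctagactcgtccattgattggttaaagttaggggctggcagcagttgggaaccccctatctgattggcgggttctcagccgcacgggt
In Mcm5 and in Mcm6, matches on the 2 strands overlapped in 1 run, which begins 153 bases before the start site in Mcm5 and 110 before it in Mcm6. Another match in Mcm6 begins 47 bases before the start. In Mcm7 the match shown begins 165 bases before the start, another lies 16 bases after it, and a second RefSeq window of the gene, chr5:138171217-138171516, held none. A match here is a run of letters, not a measured site, and genes of either direction carried it.

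Among the 11 genes of the replication fork, 4 were higher and 1 was lower, beside 35.1% and 39.9% of all genes. The other 6 did not pass, and the median log2 fold change was 0.12. Lig1, whose ligase seals the nicks between Okazaki fragments (chromosome 7, 13277283 to 13311433), had, with Rrm2, the largest fold change of the 30 genes. It stood at 14.2, 11.6 and 13.6 CPM in PA/OA and at 44.0, 46.8 and 42.3 in PP, 3.38-fold higher, with a log2 fold change of 1.76 ± 0.095 (edgeR adjusted p = 2.57e-13). Pcna, the gene of the sliding clamp that holds polymerases on DNA (chromosome 2, 132249162 to 132253314), went from 62.8, 79.9 and 69.9 to 114, 129.8 and 125 CPM. All its PP values lay above all its PA/OA values, and it rose by 0.80 ± 0.075 (edgeR adjusted p = 2.98e-09). Per kilobase Pcna was the most abundant fork gene in both groups, at 29.5 ± 3.58 and 51.3 ± 3.33 CPM per kilobase (SD, n = 3).

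The clamp is placed by a loader of 5 RFC subunits, of which 2 are in the list. Rfc4 rose from 7.05, 8.16 and 6.93 to 12.6, 11.0 and 10.4 CPM, by 0.62 ± 0.14 (edgeR adjusted p = 0.000468), but did not pass with library size only. Rfc3 stood at 7.46, 7.33 and 7.57 and 6.94, 7.60 and 8.41 CPM, with overlapping groups and a log2 fold change of 0.039 ± 0.15 (edgeR adjusted p = 0.82); with library size only it was called lower (-0.40, edgeR adjusted p = 0.0209). The count of Rfc4 relative to Rfc3 was 0.944, 1.11 and 0.915 in PA/OA and 1.81, 1.45 and 1.24 in PP. Of the loader's other genes, Rfc2 rose by 0.58 (not with library size only, 0.15), and Rfc1 and Rfc5 did not pass (-0.041 and -0.22). Both were called lower with library size only (-0.48 and -0.65) and with upper-quartile scaling (-0.28 and -0.45), and Rfc1 with the trend removed too (-0.31). Rfc4 shares 194 of its 1533 exon bases with Eif4a2, an abundant gene on the opposite strand.

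Of the priming genes, Pola1 fell and Prim1 did not pass. Pola1, the catalytic subunit of the polymerase that starts each new strand (chromosome X, 93304767 to 93632155), was the only fork gene called lower, from 14.3, 18.1 and 13.6 to 10.8, 11.3 and 9.86 CPM (-0.53 ± 0.13, edgeR adjusted p = 0.000875). Its partner Pola2 fell too, by 0.39, while the primase gene Prim2 did not pass (0.13) and was called lower with library size only (-0.31) and higher with the trend removed (0.28). Prim1 had 7.84, 8.22 and 10.3 CPM in PA/OA and 8.37, 9.23 and 11.0 in PP, with groups that overlapped, and passed as higher only with the trend removed (0.36). Relative to Pola1, the count of Lig1 was 0.991, 0.637 and 0.997 in PA/OA and 4.07, 4.14 and 4.29 in PP, 4.86 times higher. Mcm10, which helps the helicase start, had 10.1, 10.7 and 9.07 and 9.13, 8.90 and 8.81 CPM and did not pass (-0.16, edgeR adjusted p = 0.295), but was called lower with library size only (-0.59) and with upper-quartile scaling (-0.39).

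CDC45 and GINS complete the active helicase. Cdc45 had 3.48, 3.26 and 3.36 CPM in PA/OA and 4.59, 5.07 and 4.11 in PP, and passed narrowly (0.45 ± 0.20, edgeR adjusted p = 0.0494). That call held with limma-voom, with the trend removed and without PP replicate 3, and was lost in the other 14 of 17 alternatives, with log2 fold changes from 0.011 to 0.47 in those 14. Gins1 had 10.3, 11.1 and 11.8 and 11.1, 11.3 and 11.2 CPM and did not pass (0.016 ± 0.12, edgeR adjusted p = 0.912), but was called lower with library size only (-0.42). Gins2 had 2.49, 2.56 and 3.04 and 2.31, 4.13 and 4.51 CPM. The low value of PP replicate 1 kept its groups overlapping; without that library the log2 fold change went from 0.45 (edgeR adjusted p = 0.115) to 0.71 (adjusted p = 0.0112), and it passed as well with the trend removed (0.90). Of the other GINS genes, Gins4 fell by 0.27 and Gins3 did not pass (0.12).

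For a pair of fork genes the annotation leaves little that is theirs alone. Of the 2422 exon bases of Fen1, whose nuclease trims the flaps of Okazaki fragments, 2039 (84.2%) also lie in exons of Gm10143 and Tmem258 on the opposite strand. Fen1 held 20, 30 and 17 counts in PA/OA and 17, 19 and 18 in PP, at most 0.999 CPM in any library, with a log2 fold change of -0.13 ± 0.44 (edgeR adjusted p = 0.804). It passed as higher with the trend removed (1.00, edgeR adjusted p = 0.048). Of the 4097 exon bases of Gins2, 2758 (67.3%) lie in exons of Gse1, whose own count went from 1156, 1003 and 978 to 2175, 2161 and 2209. How reads that fall on both genes were counted is not recorded, so the counts of Fen1 and Gins2 are uncertain. Smaller overlaps on the opposite strand touch other members. Cdc45 shares 209 of its 3506 exon bases with Ufd1, which held 995, 935 and 817 counts in PA/OA and 1074, 1236 and 1223 in PP. Lig1 shares 247 of 4268 with Zswim9, Slbp 474 of 6076 with Gm10459 and Tk1 83 of 5198 with Afmid.

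**Figure D3:**
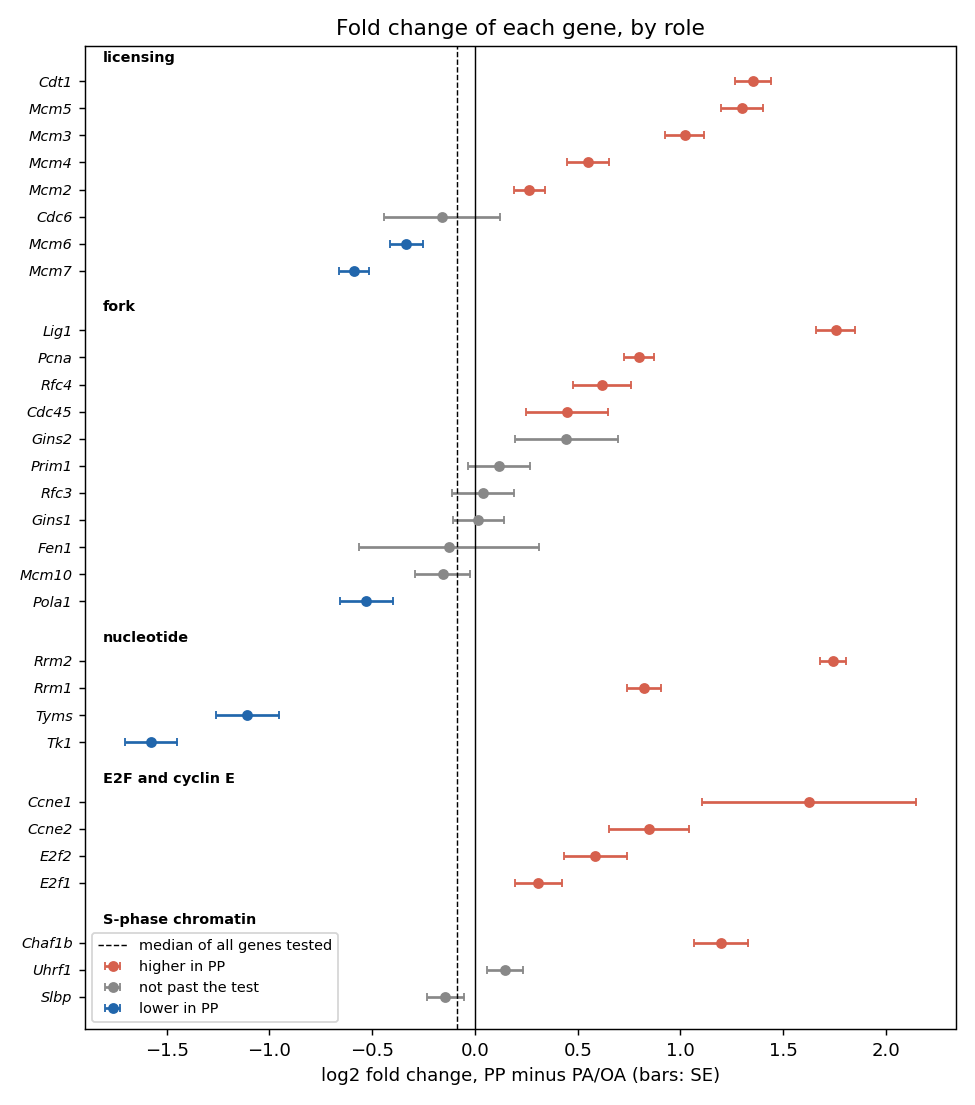
Log2 fold change of PP minus PA/OA for the 30 genes by role, with SE bars from edgeR on 3 libraries a group; red and blue points passed the test as higher and lower, grey ones did not, and the dashed line is the median of all genes tested (-0.087). Lig1 and Rrm2 reach 1.76 and 1.74, Tk1 stands at -1.58, and the 6 grey fork genes lie between -0.16 and 0.45.

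The 4 genes of nucleotide supply were split, 2 higher and 2 lower, beside 35.1% and 39.9% of all genes. All 4 had groups that did not overlap, as did 77.4% of all genes. Rrm2 codes for the small subunit of ribonucleotide reductase, the enzyme that makes deoxyribonucleotides, and the protein is made mainly in S phase (chromosome 12, 24708241 to 24714146). It stood at 104, 112 and 93.0 CPM in PA/OA and at 341, 354 and 339.6 in PP, 3.34-fold higher (1.74 ± 0.063, edgeR adjusted p = 3.36e-16). Rrm1, the large subunit (chromosome 7, 102441695 to 102469771), went from 33.5, 38.5 and 30.2 to 58.8, 58.9 and 62.8 CPM and rose by 0.82 ± 0.083 (edgeR adjusted p = 9.32e-09). Both subunits rose, but Rrm2 rose further: its count relative to Rrm1 was 3.11, 2.92 and 3.08 in PA/OA and 5.80, 6.01 and 5.41 in PP. The gene of the alternative small subunit used outside S phase, Rrm2b, fell by only 0.25. Its groups overlapped, at 45.9, 52.7 and 39.4 CPM in PA/OA and 40.6, 35.5 and 40.5 in PP. The share of Rrm2b in the summed level per kilobase of the 3 subunit genes went from 11.1% ± 0.480 to 3.17% ± 0.293 (SD, n = 3). That sum also holds Rrm2 and Rrm1, which rose, so the share fell further than the level of Rrm2b itself.

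Thymidine genes went the other way. Tk1, the thymidine kinase of the salvage route (chromosome 11, 117815526 to 117826092), fell from 22.5, 20.3 and 25.3 to 8.75, 6.80 and 7.31 CPM, 2.99-fold lower (-1.58 ± 0.13, edgeR adjusted p = 2.05e-10). Tyms, the thymidylate synthase that makes dTMP de novo (chromosome 5, 30058202 to 30073617), fell from 14.5, 10.8 and 11.5 to 6.44, 5.47 and 5.20 CPM (-1.11 ± 0.15, edgeR adjusted p = 1.19e-06). Rrm2 and Tk1 both act in S phase. The count of Rrm2 relative to Tk1 was 4.62, 5.54 and 3.67 in PA/OA and 39.0, 52.0 and 46.4 in PP, 10.0 times higher and the widest change of the 9 ratios computed. Relative to Tyms the count of Rrm2 was 7.18 times higher. Each of the 9 ratios had groups that did not overlap, and each gave p = 0.1 by the exact two-sided permutation test, also after Benjamini-Hochberg adjustment over the 9. That is the smallest p that 3 against 3 allows. The pairs were chosen with the values of the genes known, so this test adds no support to the differences. Per kilobase, Rrm2 was the most abundant of all 30 genes in both groups, at 37.2 ± 3.51 and 124 ± 2.87 CPM per kilobase, and Tk1 went from 4.37 ± 0.487 to 1.47 ± 0.194.

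All 4 genes of E2F and cyclin E were called higher, beside 35.1% of all genes, with a median of 0.72. Levels were low for Ccne2 (3.37 CPM in PA/OA and 6.08 in PP) and lowest for Ccne1 (0.343 and 1.08). E2f1 and E2f2 code for activating E2F factors. E2f1 (chromosome 2, 154559407 to 154569892) had 12.3, 12.9 and 12.1 CPM in PA/OA and 16.0, 14.1 and 16.0 in PP, a log2 fold change of 0.31 ± 0.11 (edgeR adjusted p = 0.0177). E2f2 (chromosome 4, 136172394 to 136196057) had 6.57, 6.83 and 8.25 and 12.9, 9.84 and 9.75 CPM and was called higher too (0.59 ± 0.15, adjusted p = 0.00168). The PP libraries lay above the PA/OA libraries for both, but with library size only neither passed, and there E2f1 stood at -0.13 (edgeR adjusted p = 0.323). E2f1 did not pass with upper-quartile scaling (0.072) or among protein-coding genes only (0.23) either.

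Ccne2, a cyclin E gene (chromosome 4, 11191351 to 11204779), went from 3.19, 4.06 and 2.86 to 6.44, 5.72 and 6.08 CPM and was called higher (0.85 ± 0.19, edgeR adjusted p = 0.000493), but not with library size only (0.41, adjusted p = 0.0596). It shares 609 of its 3495 exon bases with Ints8 on the opposite strand. Ccne1, the other cyclin E gene (chromosome 7, 38097984 to 38107534), held 10, 17 and 4 counts in PA/OA and 32, 35 and 17 in PP, which is 0.343 ± 0.213 and 1.08 ± 0.399 CPM (SD, n = 3). Its groups did not overlap and its log2 fold change was 1.63 ± 0.52 (edgeR adjusted p = 0.00766). Without PA/OA replicate 3, which held 4 counts, it was 1.28 and did not pass (edgeR adjusted p = 0.0553), and with the trend removed it was 2.92.

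Of the 3 genes of S-phase chromatin, 1 was higher and 2 did not pass, where 75.0% of all genes were called. Chaf1b, a subunit of the CAF-1 chaperone that places histones on new DNA (chromosome 16, 93883901 to 93906115), went from 6.09, 6.86 and 7.22 to 16.8, 14.8 and 14.7 CPM, 2.30-fold higher (1.20 ± 0.13, edgeR adjusted p = 3.32e-08). The other CAF-1 genes rose with it, Chaf1a by 0.83 and Rbbp4 by 0.93, although Chaf1a shares 52.5% of its exon bases with Ubxn6. Uhrf1, which brings the maintenance methyltransferase to new DNA, had 24.8, 24.9 and 27.0 CPM in PA/OA and 27.3, 30.4 and 27.3 in PP. Its groups did not overlap, but the difference did not pass (0.15 ± 0.088, edgeR adjusted p = 0.134) and was called lower with library size only (-0.29). Slbp, whose protein binds the stem-loop of histone mRNAs, had 27.6, 31.4 and 29.2 and 26.0, 25.1 and 28.7 CPM and did not pass (-0.14 ± 0.089, edgeR adjusted p = 0.148), but was called lower with library size only (-0.58) and in 3 more of the 17 alternatives, upper-quartile scaling (-0.38) among them.

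**Figure D4:**
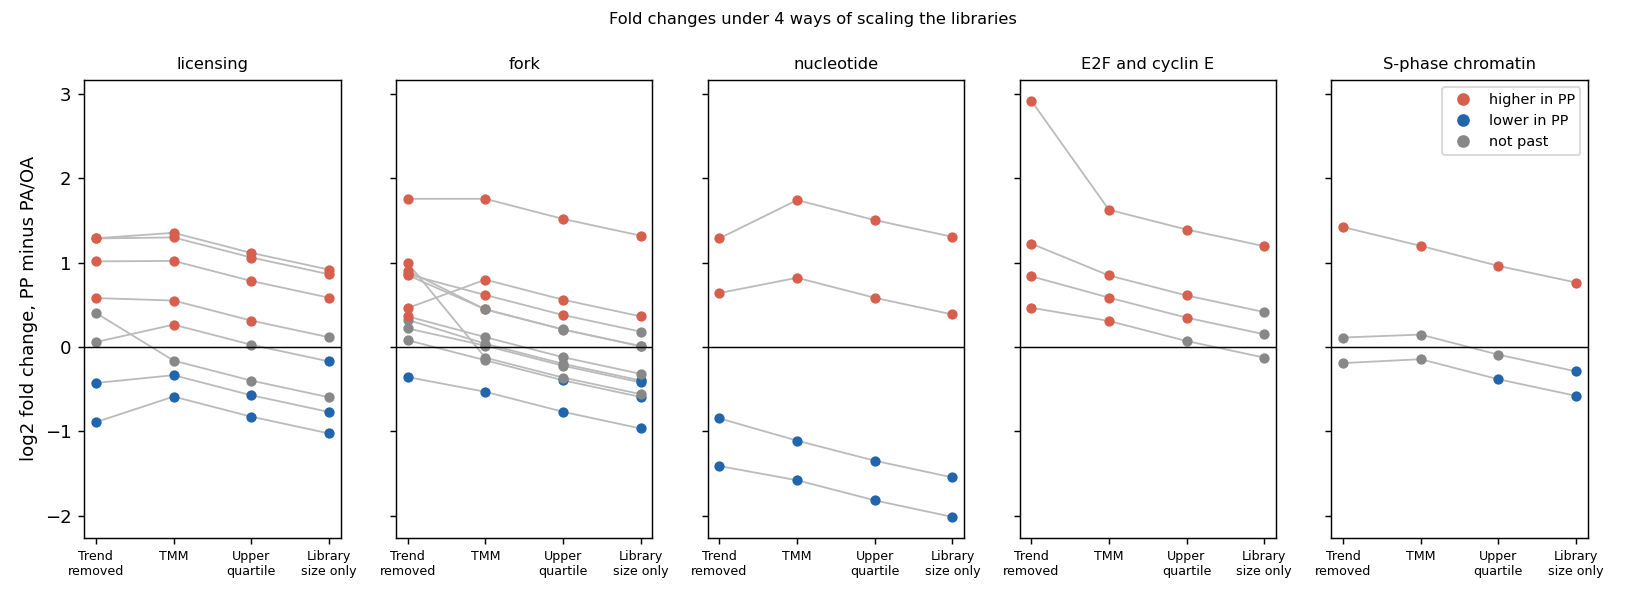
Log2 fold change (PP minus PA/OA) of the 30 genes by role under 4 scalings of the libraries, left to right: trend with abundance removed, TMM, upper quartile and library size only; each line is 1 gene, red and blue points were called higher and lower and grey ones were not called. Rrm2, Rrm1, Tk1 and Tyms keep their side throughout, whereas Mcm2 goes from 0.27 with TMM to -0.17 with library size only.

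The rest of the pathway was read from lists of related genes, by the same test. Of 125 related genes tested, 72% were called with TMM, a share near the 75.0% of all genes. By direction, 47.2% were higher and 24.8% lower, beside 35.1% and 39.9% of all genes. With library size only, 20.6% of all genes were higher and 56.7% lower. The counts of each list below stand beside these shares. Of 11 genes of origin recognition and licensing control, 4 were higher and 2 lower, with 3 and 6 under library size only. Hells, which codes for a chromatin remodeller, rose by 1.12. The origin recognition genes themselves split, with Orc4 and Orc3 higher by 0.81 and 0.53 and Orc2 lower by 1.40. Orc1, Orc5 and Orc6 did not pass the test. Orc2 shares 1150 of its 3857 exon bases (29.8%) with Nif3l1, so its count is uncertain to that extent. With library size only Orc3 (0.093) did not pass, and Orc5 (-0.51) and Orc6 (-0.61) were called lower, as they were with upper-quartile scaling (-0.31 and -0.41), while Orc1 was called higher with the trend removed (0.65). Of 8 origin firing factors, 5 were higher and 3 lower, with 3 and 3 under library size only. Wdhd1, which ties polymerase alpha to the helicase, rose by 2.29, Dbf4, the activating subunit of the CDC7 kinase, by 0.92, and Mtbp fell by 1.13. Of 28 other fork genes, 9 were higher, 7 lower and 12 not past, and their median was 0.11, beside 0.12 for the 11 fork genes above; under library size only the counts were 5 higher and 16 lower. The polymerase delta genes Pold3 and Pold4 rose by 1.12 and 1.02, and Rnaseh2a, a subunit of the nuclease that removes RNA from DNA, fell by 0.85. Exons of other genes cover 24.6% of the exon bases of Pold4 and 14.7% of those of Rnaseh2a.

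Of 13 other genes of nucleotide supply, 3 rose and 7 fell (median -0.28), with 2 and 10 under library size only. Dck and Cmpk1, kinases that act on deoxycytidine and on pyrimidine monophosphates, rose by 1.69 and 1.23. Nme1, a nucleoside diphosphate kinase gene, fell by 1.32, and Dtymk by 0.98. The largest fall of the list was that of Dctd, by 2.21. Of 10 other genes of S-phase chromatin, 8 were higher and none lower, with 2 not past, while 4 and 2 were called with library size alone. Npat, which drives histone gene transcription, rose by 1.09. Of 12 genes of the replication checkpoint, 4 were higher and 4 lower, with 1 and 6 under library size only. Wee1, the kinase gene that restrains CDK1 and CDK2, rose by 2.38. Of 16 genes of G2 and mitosis, 13 rose and 1 fell (median 0.87), with 9 and 4 under library size only. As shares with TMM, 81.2% of these genes were higher and 6.25% lower, beside 35.1% and 39.9% of all genes.

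The list of 28 G1/S regulators, of which 27 were tested, held 13 higher, 7 lower and 7 not past, with 9 higher and 14 lower under library size only. As shares with TMM, 48.1% were higher and 25.9% lower, beside 35.1% and 39.9% of all genes. Cdk2, the kinase partner of cyclin E, rose from 18.2 ± 1.69 to 31.7 ± 2.46 CPM (SD, n = 3). The genes of 2 inhibitors of that kinase rose further, Cdkn1a, which codes for p21, from 132 ± 4.74 to 446 ± 20.1 CPM and Cdkn1b, which codes for p27, from 79.6 ± 7.88 to 351 ± 6.84. Cdk6, the kinase gene of D-type cyclins, fell by 1.82, and Tfdp1, which codes for the dimer partner of E2F, by 0.79. The named related genes other than Orc3, Rfc2, E2f4, E2f6, E2f8 and those that did not pass kept their call and direction under all 5 scalings. Only mRNA was measured, so kinase activity, loaded helicase and the share of cells in S phase were not tested.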

How the data were processed

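Total RNA of 6 libraries of AML12 cells, 3 given PA/OA and 3 given PP, was sequenced. The table deposited by the authors gives unscaled read counts by gene. The submitters' processing notes name featureCounts, build mm10 and DESeq2 1.16.1, without parameters. The sources used here do not give the aligner, annotation, strand setting or library kit. Gene length, which served to compare levels between genes, is an other value in bases that the authors deposited with each gene; for all 30 members it equalled the exon bases of GENCODE M21, from which overlaps with other genes were taken.

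Groups came from the treatment labels. The test was edgeR 4.0.16 in R 4.3.3, after filterByExpr and TMM scaling: a two-sided quasi-likelihood F-test with p-values adjusted by Benjamini-Hochberg over all 15718 genes tested (threshold 0.05). It was tested on simulated data in which few genes changed, as many up as down. That run does not cover a comparison in which most genes differ, as here. Log2 fold changes are PP minus PA/OA; the SE is the fold change divided by the root of F. Other scalings were the DESeq2 1.42.0 size factors, library size alone, the upper quartile, and a lowess curve of fold change on abundance subtracted in each library (span 0.4). Other tools were DESeq2 and limma-voom (limma 3.58.1). Other gene sets were all genes without a filter, genes with 1 CPM or more in 3 libraries, and protein-coding genes. Halved counts, a block for the replicate number, each library left out in turn and, for ranks, CPM without length were tried too.

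All 30 members were to be described, with library values for those that changed most, went against their role, did not pass or were scarce. Related genes were to be named by smallest p or as subunits of the same complexes. The related E2F genes, Dctd and Dtymk were named in addition. Members, lists and alternatives were chosen with earlier results of these data known.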

Additional observations from a re-analysis of the deposited data

How the results depend on the processing

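Of 506 values of single genes under 17 alternatives, 468 kept their direction and their side of the threshold, 23 no longer passed, 9 came to pass and 6 changed direction with a call in at least 1 of the 2 settings. A change of sign between values that passed in neither was not counted. The 6 were Mcm2 (-0.17), Gins1 (-0.42), Rfc3 (-0.40), E2f1 (-0.13) and Uhrf1 (-0.29) with library size only, and Fen1 (1.00, from -0.13) with the trend removed. Ccne1 and Fen1 fell below the filter and were not tested with at least 1 CPM in 3 libraries or with halved counts. With library size only, 9 of the 30 genes rose and 11 fell (median -0.058), and by role 3 licensing genes were higher, 2 fork genes higher and 4 lower, 1 gene of E2F and cyclin E higher and 2 of S-phase chromatin lower; medians were -0.027 for licensing, -0.32 for the fork, -0.58 for nucleotide supply, 0.28 for E2F and cyclin E and -0.29 for S-phase chromatin. With upper-quartile scaling the median of the 30 was 0.14, 2 fork genes and 1 of S-phase chromatin were lower, and medians were 0.17 for licensing, -0.12, -0.38, 0.48 and -0.090 for the roles in the same order. With the trend removed the median of the 30 was 0.52, 7 fork genes were higher, and medians were 0.49 for licensing, 0.46 for the fork and 1.03 for E2F and cyclin E. With at least 1 CPM in 3 libraries the median of the 30 was 0.32, that of licensing 0.35 and that of E2F and cyclin E 0.53, and 1 gene of S-phase chromatin was lower, as it was among protein-coding genes only, where the medians were 0.30 for the 30 genes, 0.33 for licensing and -0.23 for nucleotide supply. With halved counts the median of E2F and cyclin E was 0.55. Leaving out each library in turn gave medians from 0.30 to 0.40 for the 30 genes and from 0.34 to 0.47 for licensing, with 14 to 16 genes higher and 5 lower. The cause of these differences was not tested. With the replicate number as a block, 15 genes were higher and 5 lower, and the call of Cdc45 was lost (edgeR adjusted p = 0.0703). Same-numbered libraries did not deviate together (correlations of 0.0052, 0.0030 and -0.023), and not every library correlated best with its own number. No pairing by number was thus seen, but with 3 libraries a group a pairing could go unseen. Ranked within its role by CPM without length, Cdt1 came after Mcm7 and Mcm2 rather than first among licensing genes in PP, and 12 of the 30 genes changed rank. Depth limits Ccne1, Fen1 and Cdc6, which held at most 73 counts in any library.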
